A study of Mus musculus with 6 samples.

Results

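The MYC, MAX and MXD network was described as 10 genes, Myc, Mycn, Mycl, Max, Mxd1, Mxi1, Mxd3, Mxd4, Mnt and Mga, out of 51826 Ensembl genes in a table of RNA-seq read counts. The genes were taken as a named family, by matching each symbol to its Ensembl identifier on GRCm38, and all 10 were found and had enough reads to be tested. The libraries came from wild-type V6.5 mouse cells in 2 states: epiblast-like cells (EpiLC, n = 3), sampled on day 3 without LIF and without 2i, and embryonic stem cells (ESC, n = 3), kept in LIF and in 2i, the paired inhibitors of GSK and MEK. The base medium of both states was Knockout DMEM, with 15% serum, and all libraries derived from that single line, a hybrid mouse embryonic stem cell line. The labels do not say that replicates were separate cultures, so p-values measure the spread between these libraries, which may be technical.

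MYC proteins are basic helix-loop-helix leucine zipper factors that bind the E-box, CACGTG, only as dimers with MAX, and they activate genes of growth, ribosome production and metabolism. MXD proteins, MXI1 and MNT compete for MAX and recruit SIN3 and histone deacetylases to the same sites. MGA also pairs with MAX, and is the scaffold of PRC1.6, a Polycomb complex that represses germline genes in stem cells. In mouse embryonic stem cells MYC and MYCN are known to overlap in function, and LIF signalling through STAT3 is known to sustain Myc transcription.

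Library totals lay between 9710410 and 22879812 counts, and 14996 genes were tested. ESC replicate 3 stood apart from ESC replicates 1 and 2, by a chi-square statistic over genes of 28.3 and 29.0 per degree of freedom, against 2.79 between those libraries, while EpiLC pairs lay between 2.28 and 4.35. The labels fitted the markers: 8 of 9 formative epiblast markers were called higher and 0 lower in EpiLC, and 0 of 11 naive markers were called higher and 10 lower. As background for these and the following counts, 64.6% of all tested genes were called, 32.0% higher and 32.6% lower. Of 11 fibroblast markers, 7 were tested, with 5 called higher and 1 lower. Their summed level was 273 to 319 CPM in EpiLC and 12.9 to 16.8 CPM in ESC, and Tagln alone averaged 274 CPM in EpiLC. Lum and S100a4 were at 0 counts in EpiLC, and Dcn, Postn and S100a4 in ESC. Of 9 primitive endoderm markers, 6 were tested, with 2 called higher and 3 lower, a summed level of 26.97 to 29.5 CPM in EpiLC and 122 to 157 CPM in ESC, and Hnf4a at 0 counts in EpiLC. The 2 called higher were 1 when any library other than ESC replicate 3 was left out. Of 6 neural markers, 4 were tested, with 3 called higher and 0 lower, and a summed level of 407 to 445 CPM in EpiLC and 92.3 to 132 CPM in ESC. The 0 lower among these, by edgeR, were 1 without ESC replicate 3 or EpiLC replicate 2. The part of these markers in the results below was not tested, and in bulk RNA fewer cells of a type and less RNA per cell cannot be told apart.

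The stretch of 9 codons that encodes the DNA-contacting part of the basic region is shown for 9 members, all but Myc, to set them side by side. It was found in GENCODE M21 transcripts by the pattern His-Asn/Thr-any-any-Glu-Arg/Lys-any-Arg-Arg, and the codons of its first, middle and last residues, which contact the E-box, are in capitals. The coding-strand sequences of 27 bases are, 5′ to 3′:
Mycn: CACaacatcctgGAGcgtcaacgcCGG
Mycl: CATaacttcttgGAAcgaaaaaggAGG
Max: CATaatgcactgGAAcgaaaacgtAGG
Mxd1: CACaatgaaatgGAAaagaacaggCGT
Mxi1: CACaatgagttgGAAaagaaccgaCGA
Mxd3: CACaacgagctgGAGaagcgcaggAGA
Mxd4: CACaacgaactaGAAaagcacagaCGA
Mnt: CACaacaaattgGAGaagaacaggAGG
Mga: CACactgccaatGAGcggcgtcggCGT
The stretch begins at base 1150 of the Mycn coding sequence, at base 82 of the short Max coding sequence and at base 7216 of that of Mga, whose coding sequence of 9126 bases was the longest of these. Mxd1 and Mxi1 shared 22 of 27 bases, Mycl and Max 20, and Mga shared no more than 15 with any of the other members shown. Over whole transcripts the members were largely distinct. None of the windows of 50 bases in Myc, Mycn, Mycl, Mxd1 or Mnt transcripts occurred in another gene's transcripts, and the share was 0.0276% for Max, 0.559% for Mga, 2.13% for Mxi1, 2.22% for Mxd3 and 5.39% for Mxd4. The read length is not given in the sources used here.

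Levels below are CPM, the reads of a gene relative to its library's TMM-adjusted total, and each gene was tested with edgeR's quasi-likelihood test, with p-values adjusted over all 14996 genes and a call at an adjusted p under 0.05. Of the 10 members, 4 were called higher in EpiLC (Myc, Mycl, Mxd4 and Mnt), 4 were called lower (Mxd1, Mxi1, Mxd3 and Mga) and 2 were not called (Mycn and Max). Over all genes, 64.6% were called, 32.0% higher and 32.6% lower, and 8 of 10 members called was not far from this high background. The members' median log2 fold change was 0.09, against 0.01 over all genes tested. With at least a 2-fold difference 2 members were called, Myc and Mxd4, against 29.4% of all genes. In 8 of the 10 there was no overlap between the libraries of the states, as in 70.2% of all genes.

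**Figure D1:**
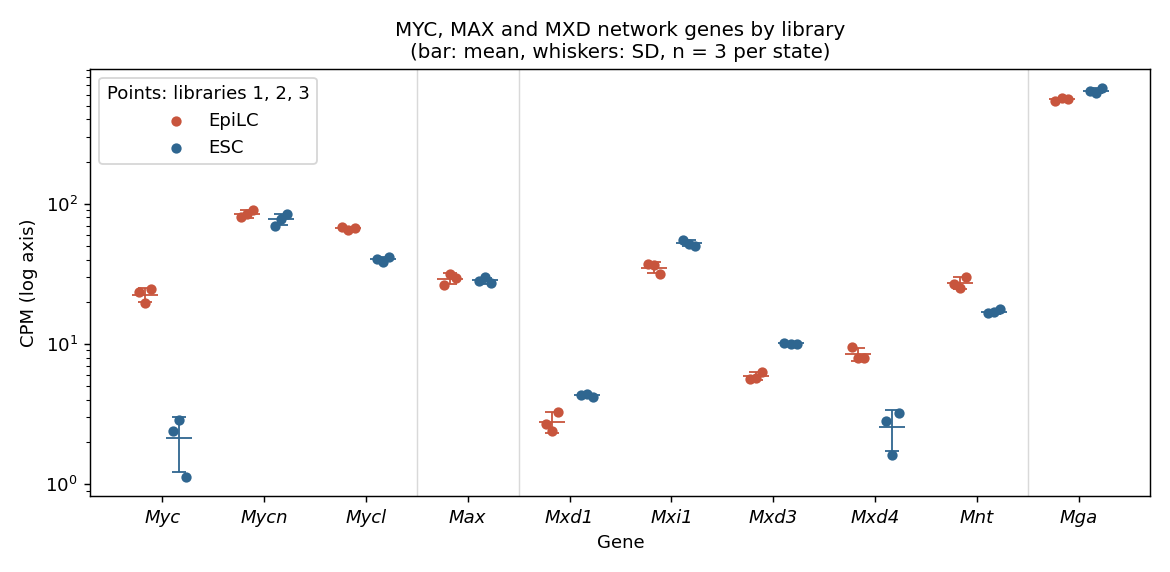
Level of each network gene in CPM (log axis) in every library, EpiLC left and ESC right of each pair. Points are libraries, horizontal bars means and whiskers SD (n = 3 per state). Myc and Mxd4 show the widest gaps, while Mycn and Max overlap between states.

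Among the MYC paralogues, the rise lay in Myc and Mycl. Myc (ENSMUSG00000022346, chromosome 15, 61985391 to 61990374 on GRCm38, the build of all gene positions given) stood at 23.3, 19.5 and 24.7 CPM in EpiLC replicates 1 to 3, against 2.38, 2.88 and 1.13 CPM in ESC replicates 1 to 3. Every EpiLC library lay above every ESC library, and ESC replicate 3, with 13 counts, was the lowest. The log2 fold change was 3.30 (SE 0.24, adjusted p = 7.73e-06), and 6.25% of all tested genes had a larger absolute value. Without ESC replicate 3 it was 3.07, which is 8.39-fold instead of 9.88-fold.

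Mycl (ENSMUSG00000028654, chromosome 4, 122995652 to 123002485), the paralogue first found in lung cancer, stood at 68.0, 65.0 and 67.3 CPM in EpiLC, against 40.6, 38.7 and 41.5 CPM in ESC. The libraries of a state lay close together and the states were well apart. Mycl rose 1.66-fold (log2 fold change 0.73, SE 0.07, adjusted p = 3.24e-05).

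Mycn (ENSMUSG00000037169, chromosome 12, 12936093 to 12941914), the paralogue amplified in neuroblastoma, stood at 80.1, 84.5 and 90.6 CPM in EpiLC, against 69.7, 78.3 and 84.1 CPM in ESC. The ranges overlapped, and the gene was not called (log2 fold change 0.14, 95% interval -0.06 to 0.34, adjusted p = 0.197). Without ESC replicate 3, the highest of its group, Mycn was called at a log2 fold change of 0.19 (adjusted p = 0.0181 by edgeR, in a range of 0.0181 to 0.635 over the alternatives). Over the alternatives its fold change on the log2 scale stayed between 0.05 and 0.20, and the intervals of Myc (2.76 to 3.85) and Mycl (0.58 to 0.89) both lay above the interval of Mycn.

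Per kilobase of exon, which makes genes of different length comparable, the paralogues kept their order in both states: Mycn, then Mycl, then Myc. In EpiLC, Mycn ranged over 24.3 to 27.5 with a mean of 25.8, Mycl 16.5 ± 0.38 and Myc 8.29 ± 0.98 CPM per kilobase. In ESC, Mycn averaged 23.5 ± 2.21, Mycl 9.97 ± 0.35 and Myc 0.78 ± 0.33 CPM per kilobase (SD, n = 3 each). The sum of the paralogues was 49.7, 48.9 and 53.2 CPM per kilobase in EpiLC, against 32.1, 34.4 and 36.2 CPM per kilobase in ESC, a ratio of means of 1.48. Of this difference of 16.4 CPM per kilobase, Myc made up 7.50, Mycl 6.57 and Mycn 2.34. The share of Myc in the sum was 16.3% ± 1.43 in EpiLC and 2.32% ± 1.03 in ESC, the share of Mycn was 51.0% ± 1.85 in EpiLC and 68.5% ± 2.34 in ESC, and the share of Mycl was 32.7% ± 1.30 in EpiLC and 29.2% ± 1.89 in ESC. The libraries of the states did not overlap in the sum or in the shares of Myc and Mycn, and overlapped in the share of Mycl. These sums and shares are descriptions, with no test.

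**Figure D2:**
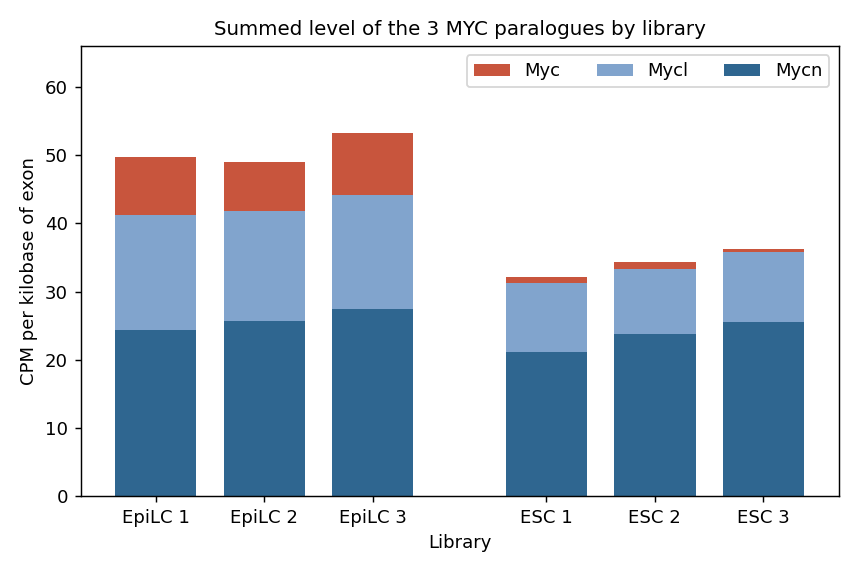
Level of the 3 MYC paralogues in CPM per kilobase of exon, stacked for each library, with the EpiLC libraries left and the ESC libraries right. The EpiLC sums lie between 48.9 and 53.2, above ESC sums of 32.1 to 36.2, and the Myc segment is thin in ESC.

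The long non-coding RNA gene Pvt1, which lies next to Myc on the same strand (ENSMUSG00000097039, chromosome 15, 62037986 to 62378096), moved the other way from its neighbour. Pvt1 stood at 6.51, 6.49 and 5.70 CPM in EpiLC, against 11.6, 12.2 and 11.4 CPM in ESC, with no overlap. It fell 1.88-fold (log2 fold change -0.91, SE 0.12, adjusted p = 0.000287). The MYC-like retrogene Mycs on the X chromosome was at 0 counts in all 6 libraries.

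Max (ENSMUSG00000059436, chromosome 12, 76937269 to 76962201), the shared dimer partner of the other network proteins, stood at 26.5, 31.8 and 29.5 CPM in EpiLC, against 28.0, 30.0 and 27.3 CPM in ESC. The ranges overlapped and the gene was not called (log2 fold change 0.04, 95% interval -0.18 to 0.26, adjusted p = 0.714). The sign turned negative without EpiLC replicate 2 and without a filter on low counts, both at -0.03, and the highest value over the alternatives was 0.11. Per kilobase, the summed MYC paralogues stood at 6.74, 5.53 and 6.50 times the level of Max in EpiLC, against 4.12, 4.13 and 4.77 times in ESC. The lowest EpiLC value thus lay above the highest ESC value. The size of these multiples depends on the length used, as the union of Max exons spans 3598 bases and its longest transcript 1942. As multiples of RNA, they do not give the proportions of the proteins.

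The MAX-binding repressors split: Mxd4 and Mnt rose, while Mxi1, Mxd3 and Mxd1 fell. Mxd4 (ENSMUSG00000037235, chromosome 5, 34173883 to 34187720), a MXD gene known from differentiating cells, stood at 9.51, 7.94 and 7.93 CPM in EpiLC, against 2.85, 1.62 and 3.22 CPM in ESC. The states did not overlap, and Mxd4 rose 3.43-fold (log2 fold change 1.78, SE 0.24, adjusted p = 0.000305). Its exons overlap the antisense gene Gm42846 over 6.06% of their bases, and that gene had 0 counts in each library. With the strand setting of the counting not given, those counts do not show whether the overlap affects Mxd4. Without ESC replicate 2, the lowest, the log2 fold change was 1.47.

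Mnt (ENSMUSG00000000282, chromosome 11, 74830920 to 74845725), a repressor found in most cell types whether or not they divide, stood at 26.6, 25.2 and 30.2 CPM in EpiLC, against 16.6, 16.95 and 17.6 CPM in ESC. All EpiLC libraries lay above all ESC libraries. Mnt rose 1.61-fold (log2 fold change 0.68, SE 0.10, adjusted p = 0.000448).

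Mxi1 (ENSMUSG00000025025, chromosome 19, 53310518 to 53375810), also called MXD2, stood at 37.2, 36.6 and 31.6 CPM in EpiLC, against 54.9, 52.0 and 49.8 CPM in ESC. The states were apart, and Mxi1 fell 1.49-fold (log2 fold change -0.57, SE 0.09, adjusted p = 0.000579). Its opposite-strand neighbour Gm10197, which overlaps 2.84% of its exon bases, had at most 2 counts in a library. As the strand setting of the counting is not given, this low count does not show whether the overlap affects Mxi1.

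Mxd3 (ENSMUSG00000021485, chromosome 13, 55325168 to 55329823), a MXD gene known to be expressed in the S phase of dividing cells, stood at 5.61, 5.72 and 6.33 CPM in EpiLC, against 10.2, 10.1 and 10.1 CPM in ESC. The EpiLC libraries were all lower, and Mxd3 fell 1.71-fold (log2 fold change -0.78, SE 0.12, adjusted p = 0.000726). A stretch of 105 of its exon bases overlaps Prelid1 on the opposite strand, a more abundant gene with 94.5 ± 2.04 CPM in EpiLC and 107 ± 15.4 CPM in ESC. The strand setting of the counting is not given in the sources used here, so the counts of Mxd3 are uncertain to that extent.

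Mxd1 (ENSMUSG00000001156, chromosome 6, 86647042 to 86669161), the founding MXD gene, stood at 2.70, 2.39 and 3.30 CPM in EpiLC, against 4.35, 4.41 and 4.17 CPM in ESC. The EpiLC libraries were all lower, at 27 to 37 counts each. The gene fell 1.55-fold (log2 fold change -0.63, SE 0.18, adjusted p = 0.0148). The call was lost with DESeq2 (adjusted p = 0.0600), without EpiLC replicate 1 (0.0520) and without EpiLC replicate 2 (0.0716), and the range over the alternatives was 0.00569 to 0.0716.

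**Figure D3:**
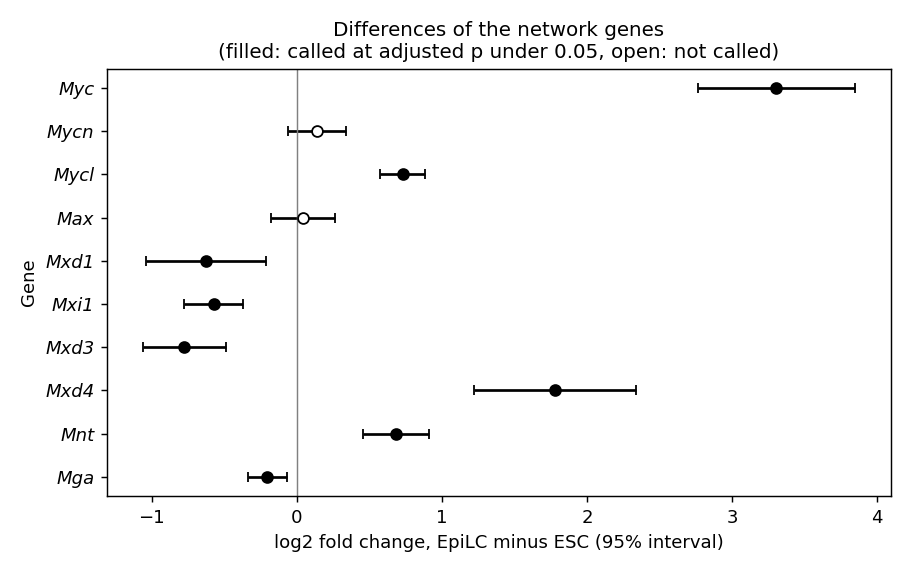
Log2 fold change of each network gene, EpiLC minus ESC, from edgeR's fit. Points are estimates, lines 95% intervals, and open points genes that were not called. The intervals of Myc and Mxd4 lie above 1, and those of Mycn and Max cross 0.

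Together the 5 repressor genes summed to 15.1, 14.5 and 15.2 CPM per kilobase in EpiLC, against 16.9, 16.3 and 16.3 CPM per kilobase in ESC. The EpiLC sums were lower in each library, at a ratio of means of 0.904. Their make-up differed by state. Mxi1 took 34.5% ± 3.58 of the sum in EpiLC and 46.3% ± 1.55 in ESC. In EpiLC, Mnt led by the union of exons at 5.91 ± 0.56 CPM per kilobase, with a range that overlapped the range of Mxi1 at 5.15 ± 0.45. That lead depends on the length used. The union spans 6823 bases for Mxi1 and 4627 for Mnt, against longest transcripts of 5036 and 4590 bases. In ESC, Mxi1 led at 7.66 ± 0.38 CPM per kilobase, followed by Mxd3 at 4.26 ± 0.02 and Mnt at 3.69 ± 0.12, with ranges apart. Mxd4 and Mxd1 were the lowest of the 5 in both states, Mxd4 above Mxd1 in EpiLC and below it in ESC. The summed MYC paralogues stood at 3.30, 3.38 and 3.49 times the summed repressors in EpiLC, against 1.90, 2.10 and 2.22 times in ESC. That ratio was higher in every EpiLC library. The summed repressors stood at 2.04, 1.64 and 1.86 times the level of Max in EpiLC, against 2.17, 1.96 and 2.15 times in ESC. For this ratio the libraries of the states overlapped. All of these ratios are of RNA and do not show the proportions of the proteins.

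Mga (ENSMUSG00000033943, chromosome 2, 119897228 to 119969581) was the most abundant member in both states, also per length, at 36.3 ± 0.82 CPM per kilobase in EpiLC and 41.9 ± 1.67 CPM per kilobase in ESC. It stood at 546, 571 and 556 CPM in EpiLC, against 636, 621 and 671 CPM in ESC. All EpiLC libraries were lower, by a small margin. Mga fell 1.15-fold (log2 fold change -0.20, SE 0.06, adjusted p = 0.0141), and was not called with library totals (adjusted p = 0.0706), without EpiLC replicate 1 (0.0547) or without EpiLC replicate 3 (0.0503), over a range of 0.000872 to 0.0706.

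Over the whole family, the order of levels per kilobase in EpiLC was Mga, Mycn, Mycl, Myc, Max, Mnt, Mxi1, Mxd3, Mxd4 and Mxd1, where the ranges of Myc and Max and of Mnt and Mxi1 overlapped. In ESC it was Mga, Mycn, Mycl, Max, Mxi1, Mxd3, Mnt, Myc, Mxd1 and Mxd4, where the ranges of Max and Mxi1 and of Myc and Mxd1 overlapped. By the union of exons, Myc thus ranked 4 of 10 in EpiLC and 8 of 10 in ESC. This order depends on the length used. The union spans 3598 bases for Max and 2717 for Myc, against longest transcripts of 1942 and 2338 bases. The order by longest transcript is not given here.

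The E-box, the site that the network's dimers bind, was looked for in RefSeq promoters on GRCm38.p6, windows of 300 bases around a gene's start. Promoters were matched for the 9 members other than Myc, and CACGTG, which reads the same on both strands, was present in 3 of these 9 genes (Max, Mnt and Mxd4) and in 8.09% of all 27025 genes with a promoter. These stretches of 60 bases are shown because they hold it, with the E-box in capitals, each on its gene's strand:
Max, chr12:76962242-76962301, minus strand: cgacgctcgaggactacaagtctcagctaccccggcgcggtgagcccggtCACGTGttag
Mnt, chr11:74830774-74830833, plus strand: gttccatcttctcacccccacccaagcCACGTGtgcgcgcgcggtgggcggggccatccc
Mxd4, chr5:34187897-34187956, minus strand: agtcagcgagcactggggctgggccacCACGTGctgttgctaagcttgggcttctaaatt
Of the genes with the motif, Mnt and Mxd4 were called higher in EpiLC and Max was not called. Of the matched genes without it, Mycl was called higher, Mycn was not called, and Mxd1, Mxi1, Mxd3 and Mga were called lower. Over all genes, 32.0% were called higher and 32.6% lower. A link between the motif and the calls was not tested. The match is a description of these windows and not of binding.

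In the parallel MLX branch, in which MLX takes the place of MAX, 1 of 3 genes was called higher and 1 lower, against 32.0% higher and 32.6% lower over all genes. Mlxip, which encodes the glucose-responsive partner MondoA, stood at 39.9, 40.6 and 46.1 CPM in EpiLC, against 17.1, 14.6 and 26.7 CPM in ESC, and rose 2.21-fold (adjusted p = 0.00133 by edgeR). ESC replicate 3 was the highest of its group, still below every EpiLC library. Mlx averaged 35.2 ± 2.21 CPM in EpiLC and 44.8 ± 2.82 CPM in ESC and fell 1.27-fold (adjusted p = 0.00686 by edgeR). Mlxipl, which encodes ChREBP, averaged 2.88 ± 0.73 CPM in EpiLC and 2.38 ± 0.95 CPM in ESC and was not called. It was called higher without ESC replicate 3 (log2 fold change 0.63, adjusted p = 0.0296 by edgeR, in a range of 0.0296 to 0.711 over the alternatives).

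Of 15 listed cofactors that MYC recruits, 3 were called higher, 5 lower and 7 not called (median log2 fold change -0.06), while 64.6% of all genes were called, 32.0% higher and 32.6% lower. Wdr5, a subunit of histone H3 methyltransferase complexes that binds MYC, averaged 219 ± 3.01 CPM in EpiLC and 446 ± 21.1 CPM in ESC (log2 fold change -1.03, SE 0.06). Actl6a, a subunit shared by BAF and TIP60 complexes, fell to 170 ± 7.49 CPM in EpiLC, against 298 ± 21.6 CPM in ESC. Hcfc1, a chromatin scaffold bound by MYC, averaged 351 ± 13.3 CPM in EpiLC and 221 ± 32.2 CPM in ESC (log2 fold change 0.67, SE 0.10). Without ESC replicate 3 the counts were 5 higher and 8 lower.

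Of 10 listed corepressors through which MXD proteins and MNT act, 0 were called higher, 6 lower and 4 not called by edgeR (median log2 fold change -0.23), beside 32.0% higher and 32.6% lower over all genes. The deacetylase gene Hdac1 fell 1.54-fold, to 32.4 ± 0.69 CPM in EpiLC, against 49.6 ± 7.84 CPM in ESC. The corepressor gene Ncor1 averaged 223 ± 6.62 CPM in EpiLC and 303 ± 30.9 CPM in ESC (log2 fold change -0.44, SE 0.08). Sin3b, one of the scaffolds that MXD proteins bind, averaged 235 ± 8.71 CPM in EpiLC and 211 ± 43.9 CPM in ESC and was not called. The count of 0 higher was 1 with library totals, with upper quartile scaling and without ESC replicate 3.

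Genes that set the lifetime of MYC protein numbered 13, of which 4 were called higher and 4 lower, with 5 not called (median log2 fold change 0.05), shares not far from those over all genes. Among deubiquitinases known to stabilise MYC, Usp28 fell by 0.58 on the log2 scale, to 85.2 ± 1.96 CPM in EpiLC, against 128 ± 6.87 CPM in ESC. Usp37 averaged 153 ± 4.54 CPM in EpiLC and 234 ± 14.5 CPM in ESC (log2 fold change -0.62, SE 0.07). Usp36 moved in the opposite direction, with 57.1 ± 1.96 CPM in EpiLC and 40.6 ± 4.65 CPM in ESC (log2 fold change 0.50, SE 0.09). Huwe1, a ubiquitin ligase with MYC among its substrates, rose 1.46-fold to 1064 ± 25.4 CPM in EpiLC, against 729 ± 120 CPM in ESC. Fbxw7, whose product marks GSK3-phosphorylated MYC for degradation, averaged 75.5 ± 2.99 CPM in EpiLC and 84.3 ± 10.1 CPM in ESC and was not called. RNA counts do not show the level of any of these proteins. The count of 4 higher was 2 without EpiLC replicate 2 and without a filter on low counts.

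Of 31 listed genes known as activated by MYC, 5 were called higher, 7 lower and 19 not called, where 64.6% of all genes were called. Their median log2 fold change was 0.01, as over all genes tested, and no test of the list was made. Levels are relative to library totals and the spike-in rows held 0 counts, so a change shared by most genes would not show here. Ccnd2, which encodes cyclin D2, rose 4.63-fold, with 23.5, 21.1 and 22.7 CPM in EpiLC and 5.64, 6.92 and 0.78 CPM in ESC. ESC replicate 3 was the lowest, as for Myc, and the rise was 3.51-fold without it. Riox2, an oxygenase of ribosomal proteins, averaged 62.6 ± 1.61 CPM in EpiLC and 39.6 ± 4.55 CPM in ESC. The mitochondrial serine enzyme gene Shmt2 fell 1.71-fold to 152 ± 1.11 CPM in EpiLC, against 259 ± 13.4 CPM in ESC, and Dkc1, which encodes the pseudouridine synthase dyskerin, averaged 207 ± 13.2 CPM in EpiLC and 335 ± 46.7 CPM in ESC (log2 fold change -0.70, SE 0.11). The nucleolar genes Ncl (1774 ± 63.8 CPM in EpiLC, 1655 ± 105 CPM in ESC) and Npm1 (1360 ± 62.2 CPM in EpiLC, 1387 ± 118 CPM in ESC) and the glycolytic gene Ldha (1077 ± 67.0 CPM in EpiLC, 994 ± 143 CPM in ESC) were not called. The calls depended on single libraries, with 6 higher and 13 lower without ESC replicate 3, 3 higher and 4 lower without ESC replicate 1, 4 higher and 4 lower without EpiLC replicate 1, and 3 higher without ESC replicate 2 or EpiLC replicate 2 or 3.

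**Figure D4:**
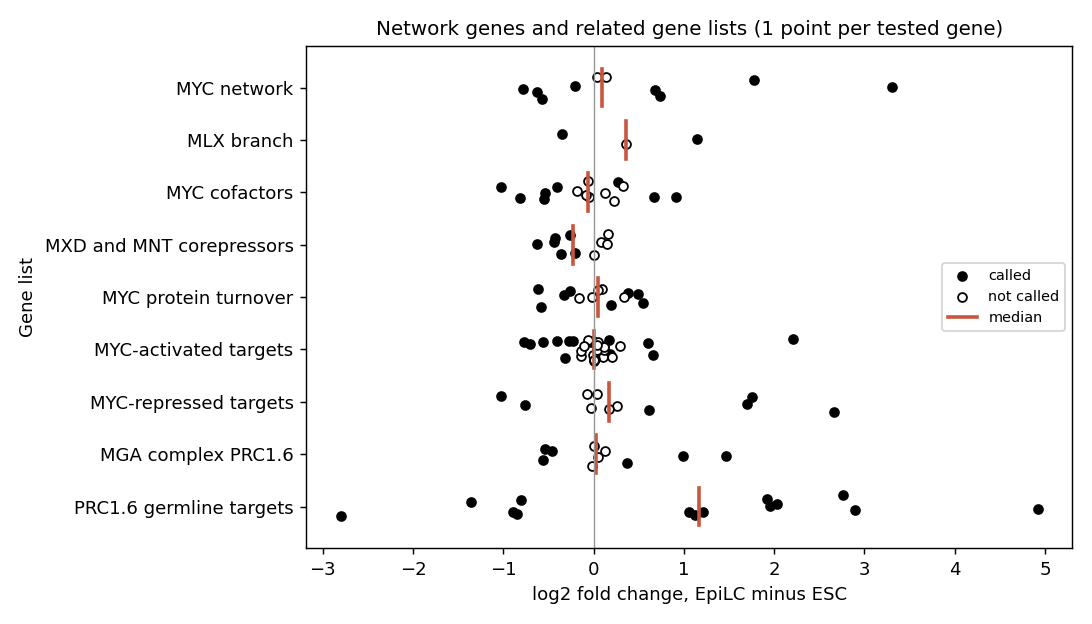
Log2 fold change, EpiLC minus ESC, of each tested gene in the network and in 8 related lists (rows). Filled points were called, open points were not, and vertical bars are list medians. The MYC-activated targets centre on 0.01, and the germline targets of PRC1.6 lie on both sides of a gap around 0.

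Genes known as repressed by MYC numbered 11, of which 4 were called higher and 2 lower, with 5 not called (median log2 fold change 0.18), against 64.6% called over all genes. Cdkn1c, the imprinted gene of the CDK inhibitor p57, stood at 42.8, 46.7 and 46.0 CPM in EpiLC, against 8.75, 7.87 and 4.09 CPM in ESC, and rose 6.32-fold. Gas1, a growth-arrest gene, averaged 9.65 ± 0.40 CPM in EpiLC and 2.88 ± 0.22 CPM in ESC (log2 fold change 1.75, SE 0.14). The p21 gene Cdkn1a fell 2.03-fold, with 20.6, 16.6 and 17.9 CPM in EpiLC and 35.7, 31.7 and 45.2 CPM in ESC. Ndrg1, a gene of stress and differentiation, fell to 9.17 ± 0.39 CPM in EpiLC, against 15.6 ± 0.98 CPM in ESC.

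The partners of MGA in PRC1.6 numbered 10, of which 3 were called higher and 3 lower, with 4 not called (median log2 fold change 0.03), close to the shares over all genes. Yaf2, a RYBP paralogue, stood at 30.0, 29.5 and 27.8 CPM in EpiLC, against 10.9, 9.58 and 11.2 CPM in ESC, and rose 2.77-fold. E2f6, the DNA-binding E2F subunit, averaged 28.6 ± 0.95 CPM in EpiLC and 14.4 ± 0.38 CPM in ESC (log2 fold change 0.99, SE 0.09). L3mbtl2, which encodes a histone-binding MBT protein, averaged 162 ± 13.0 CPM in EpiLC and 239 ± 27.8 CPM in ESC (log2 fold change -0.56, SE 0.10). Rnf2, which encodes the ubiquitin ligase RING1B, fell 1.45-fold to 127 ± 3.30 CPM in EpiLC, against 184 ± 12.2 CPM in ESC. Pcgf6, the subunit that defines the complex, averaged 88.7 ± 2.46 CPM in EpiLC and 89.9 ± 7.80 CPM in ESC and was not called.

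Of 15 listed germline genes known as targets of the complex, 14 were tested, with 9 called higher and 5 lower in EpiLC, beside 32.0% higher and 32.6% lower over all genes. The 9 higher genes each differed by at least 2-fold, as did 2 of the 5 lower ones, against 29.4% of all genes in either direction. The median log2 fold change was 1.17. Tdrkh, a Tudor protein of piRNA processing, averaged 12.9 ± 0.87 CPM in EpiLC and 1.84 ± 0.76 CPM in ESC (log2 fold change 2.90, SE 0.23). Tdrd1, a Tudor protein of the same pathway, averaged 14.9 ± 2.09 CPM in EpiLC and 0.45 ± 0.28 CPM in ESC, where its libraries held 6, 17 and 3 counts. Its log2 fold change was 4.92, and 5.62 without ESC replicate 2. Hormad1, a protein of meiotic chromosome axes, fell 6.95-fold, with 30, 48 and 38 counts in the EpiLC libraries, against 372, 512 and 367 counts in the ESC libraries. The RNA-binding protein gene Dazl stood at 8.61, 8.28 and 10.2 CPM in EpiLC, against 19.3, 22.8 and 27.9 CPM in ESC (log2 fold change -1.36, SE 0.16). Tex101 had too few counts to be tested.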

How the data were processed

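The authors deposited raw read counts per Ensembl gene, with 1 column per library. The tools cutadapt, STAR, featureCounts and DESeq2 and the build mm10 are listed, per the submitters' processing notes, without versions. The labels' protocols give Trizol extraction, rRNA depletion and a stranded kit. What annotation and strand setting were used, and what became of multi-mapping reads, is not given in the sources used here. The 92 spike-in rows held 0 counts and were left out. Symbols, positions and exon lengths came from GENCODE M21 on GRCm38, the assembly of mm10.

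Counts were tested with edgeR 4.0.16 in R 4.3.3 (quasi-likelihood, TMM, filterByExpr at 10 counts and 15 in total), with group as the single term, two-sided, Benjamini-Hochberg over all genes tested. Fold changes are EpiLC over ESC. Errors are SD over 3 libraries unless SE is named. SE is the absolute log2 fold change over the square root of the test's F statistic, and the 95% intervals use that SE. Both are thus tied to the p-value of the same test. CPM per kilobase uses the union of a gene's exons. Depth limits low genes: 3 counts were 0.135 to 0.300 CPM, for counting error only. The fit was tested on simulated data. In these, few genes changed and no library stood apart, unlike in the real counts. Alternatives were DESeq2 1.42.0, limma-voom 3.58.1, other scalings, no filter, a replicate block and each library left out. Members, lists and rules were chosen with earlier results of these data known. All members were named, and of each list other than the cell type markers up to 2 called genes with the largest change in each direction and at least 1 CPM on average where higher. Of the genes so chosen, 1 is not reported here. Tagln and the uncalled genes were picked after their values were seen.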

Additional observations from a re-analysis of the deposited data

How the results depend on the processing

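Of 130 values of the members' log2 fold changes over 13 alternatives, 123 stayed on their side of the threshold, 6 lost a call (Mxd1 and Mga), 1 gained one (Mycn without ESC replicate 3) and 0 reversed a called direction. Leaving out single libraries gave 4 to 5 members called higher and 2 to 4 called lower, the 2 without EpiLC replicate 1, where Mxd1 and Mga were lost. Over all genes these fits called 8514 to 11731, the highest without ESC replicate 3. Of MYC cofactors, 7 to 13 were called, and of MYC-activated targets 7 to 19, the highest without ESC replicate 3 in both. With the longest transcript as the length, the paralogue sum was 60.5 CPM per kilobase in EpiLC and 41.3 in ESC, by the shorter lengths. With the replicate block, edgeR called 9234 genes in all and the same counts of members, 4 higher and 4 lower. Same-numbered EpiLC and ESC libraries did not deviate together (r of -0.09, -0.01 and -0.15 over genes), and no library correlated best with its own number, so the numbers were not taken as pairs. Relative to TMM, the other scalings moved the mean log2 scaling factor of ESC against that of EpiLC by at most 0.07. Without a filter on low counts 10703 genes were called. MYC-activated targets called higher were 3 in place of 5 with the replicate block and without a filter.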
